A study of Homo sapiens with 10 samples.

Results

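The 10 genes described here encode parts of the heart muscle sarcomere and of its calcium store: the myosin heavy chains MYH6 and MYH7, the myosin light chains MYL4 and MYL7, the troponin subunits TNNT2 and TNNI1, the calcium release channel RYR2, the calcium pump ATP2A2, its inhibitor PLN and the secreted peptide precursor NPPB. They were chosen by symbol, and all 10 were found among the 32152 genes of the deposited count table. PolyA RNA of H9 cells, a human embryonic stem cell line registered as WAe009-A, was sequenced in 10 libraries, 5 from cells that the titles call KO, for the gene KCNH2, and 5 from wild-type (WT) cells. KCNH2 encodes the hERG1 potassium channel. The study's question was which expression programmes of undifferentiated cells depend on that gene. The titles and growth protocol call the altered cells a knockout or KCNH2-/-, whereas the genotype field calls them a knockdown. The labels do not say how the gene was changed, whether the cells are 1 clone, or whether replicates are separate cultures. The p-values below therefore reflect variation among these libraries, which may be technical. Both groups grew on Matrigel, WT cells in TeSR-E8 and knockout cells in mTeSR Plus, and medium and genotype cannot be told apart in any comparison below.

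In a heartbeat, calcium enters the cell and opens RYR2 in the sarcoplasmic reticulum, and the released calcium binds troponin on the thin filament so that myosin heads can pull. The pump encoded by ATP2A2 then returns calcium to the store under restraint by phospholamban, the product of PLN. Undifferentiated stem cells have no sarcomeres. Several of these genes, ATP2A2 above all, also serve the endoplasmic reticulum or cytoskeleton of non-muscle cells.

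Libraries held between 28615751 and 47319933 counts, and values are given as CPM, counts per 1000000 of the library's total after TMM scaling, a correction for library composition. KCNH2 itself lay between 11.2 and 13.2 CPM in knockout libraries and between 14.7 and 16.4 CPM in those of WT, with a log2 fold change between groups of -0.35 (edgeR, SE 0.06, adjusted p = 6.48e-04, lower in 5 of 5 knockout libraries). The labelled cell type was met by its markers, with 8 of 8 pluripotency markers tested and a summed level of 6339 to 6832 CPM in the knockout against 5566 to 5821 CPM in WT. Of the 8, 6 were called higher in the knockout and 0 lower, where 21.9% and 24.1% of all genes tested were, and SOX2 and TDGF1 were not called. POU5F1 had the largest gap in CPM, with means of 3214 in the knockout and 2617 in WT. Of 8 cardiomyocyte markers, 7 were in the table and 3 passed the filter on low counts. MYBPC3, NKX2-5 and CASQ2 averaged under 0.1 CPM over the 10 libraries. The summed level of the 7 was 36.2 to 41.0 CPM in the knockout against 47.0 to 56.8 CPM in WT, and TTN was the only tested marker of the list that differed. In bulk RNA, fewer cells of a type and less RNA per cell cannot be told apart.

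Of the 10 genes, 6 passed the filter and entered the test, and 4 of these passed an adjusted p of 0.05, MYL7 higher in the knockout and MYH6, RYR2 and ATP2A2 lower. Over all 19163 genes tested, 46.0% passed, 21.9% higher and 24.1% lower. The groups of 5 did not overlap for 3 of the 6 genes, MYH6, MYL7 and ATP2A2, as for 34.0% of all genes tested. The median log2 fold change was -0.13 over the 6 and 0.002 over all genes tested. The tested genes had no common direction, and against so many calls among all genes 4 of 6 says nothing particular about them. TNNT2 and TNNI1 did not pass, and MYH7, MYL4, PLN and NPPB were too thinly counted to test.

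**Figure D1:**
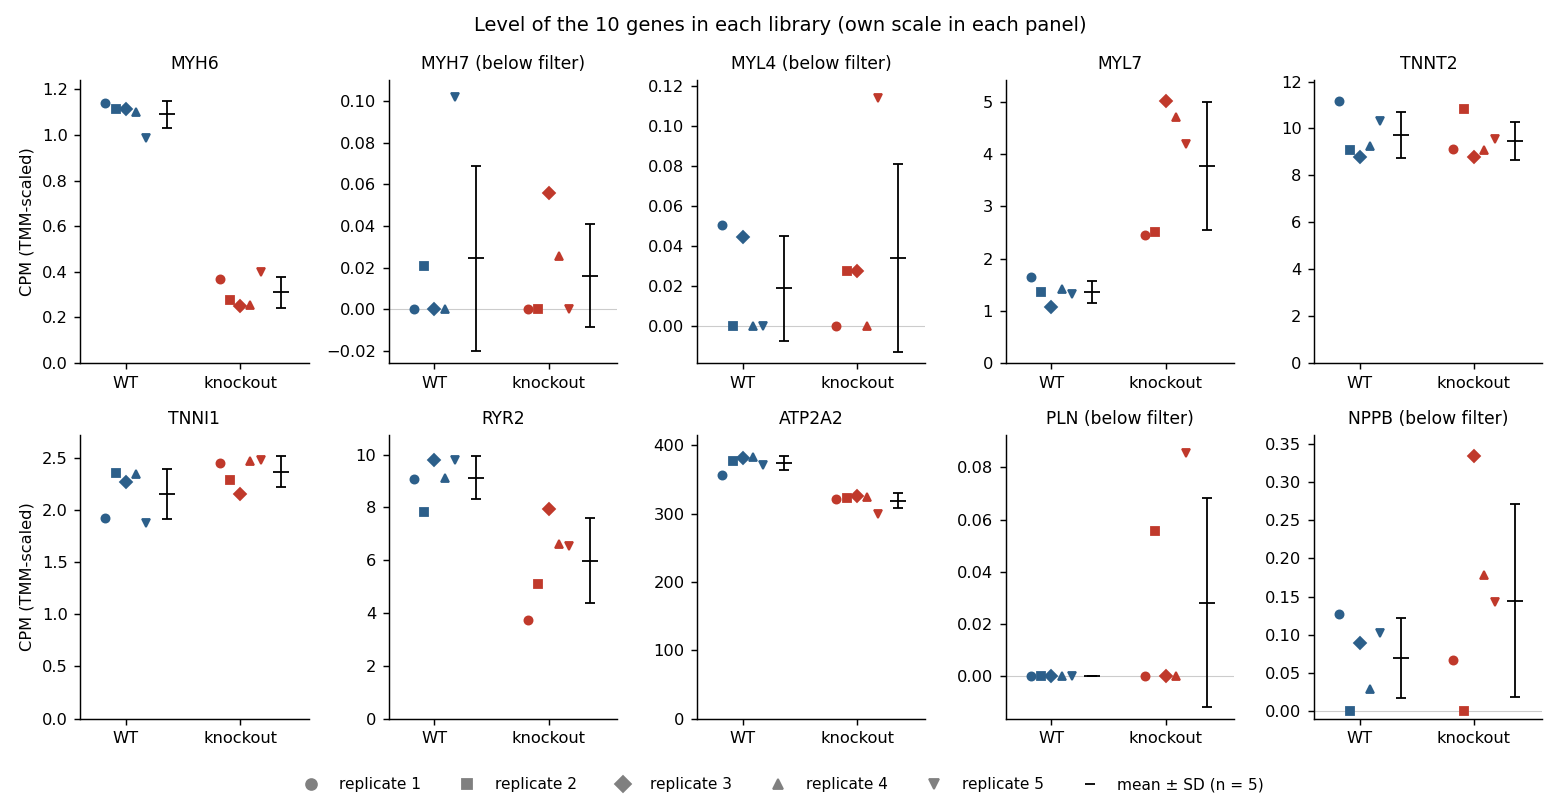
Level of each of the 10 genes in CPM (vertical axis, a scale of its own in each panel) in the 5 WT and 5 knockout libraries, with symbols for replicate numbers and bars for the mean ± SD (n = 5). MYH6 and ATP2A2 lay lower and MYL7 higher in every knockout library than in any WT library, and the 4 panels marked below filter rest on 0 to 12 counts a library.

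Among the thick filament motors, MYH6 was the gene with the largest difference of the 6. It encodes the fast alpha myosin heavy chain of atrial muscle and lies on the reverse strand of chromosome 14, 23381990 to 23408277 (GRCh38, GENCODE 29, ENSG00000197616). Its level in knockout replicates 1 to 5 was 0.370, 0.278, 0.251, 0.255 and 0.399 CPM. In WT replicates 1 to 5 it was 1.14, 1.12, 1.11, 1.10 and 0.987 CPM. Every knockout library was below every WT library by a wide margin, although each value is small and rests on 9 to 54 counts. The means were 0.310 ± 0.0689 CPM and 1.09 ± 0.0599 CPM (SD, n = 5 each). MYH6 was thus 3.52-fold lower in the knockout, a log2 fold change of -1.81 (SE 0.17, 95% interval -2.18 to -1.45, edgeR adjusted p = 6.82e-06). When the null was a log2 fold change of 1 rather than 0, it was the only one of the 6 to pass (edgeR glmTreat adjusted p = 0.00547).

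MYH7, the slow beta heavy chain that dominates the adult ventricle, lies 4460 bases away on the same strand (chromosome 14, 23412738 to 23435718). It had 3 counts over all knockout libraries and 4 over all WT libraries, and 6 of the 10 libraries had none. These are levels at the floor of the assay, where an observed 0 still allows 3 counts, or 0.0634 to 0.105 CPM by library, and no difference was detectable at this depth. MYH6 and MYH7 are near-copies, and 309 of their 100-base words are identical, which is 5.29% of the MYH6 transcript and 5.16% of that of MYH7. MYH6 took 54 of the 57 knockout counts of the pair (94.7%, exact binomial 95% interval 85.4% to 98.9%) and 216 of the 220 WT counts (98.2%, 95.4% to 99.5%). Its mean share per library was 94.5% ± 8.13 in the knockout and 97.8% ± 4.07 in WT (SD, n = 5 each), a difference that the two-sided exact permutation test did not call (p = 0.722, Benjamini-Hochberg adjusted over the 5 shares computed 0.722). Intervals and floors cover counting error only.

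The light chains went the other way in the member that could be tested. MYL7 encodes the atrial regulatory light chain, an early marker of heart tube muscle, and lies on the reverse strand of chromosome 7, 44138864 to 44141332 (ENSG00000106631). In the knockout its level was 2.45, 2.50, 5.02, 4.71 and 4.19 CPM in replicates 1 to 5. In WT it was 1.64, 1.36, 1.07, 1.42 and 1.33 CPM. All knockout libraries exceeded all WT libraries, and within the knockout replicates 1 and 2 stood at about the same low level while replicates 3 to 5 were higher. The means were 3.78 ± 1.22 CPM and 1.36 ± 0.207 CPM (SD, n = 5 each), a 2.77-fold difference with a log2 fold change of 1.47 (SE 0.22, 95% interval 0.99 to 1.95, edgeR adjusted p = 2.17e-04). Against a log2 fold change of 1 it did not pass (edgeR glmTreat adjusted p = 0.480). MYL4, the atrial essential light chain (chromosome 17, 47200446 to 47223679, forward strand), had 6 counts over the knockout libraries and 4 over those of WT, and 4 of the 6 fell in knockout replicate 5. MYL7 therefore made up 99.1% ± 1.10 and 98.6% ± 1.95 of the counts of the pair (SD, n = 5 each, exact permutation p = 0.683, adjusted 0.722).

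MYL7, MYH6 and RYR2 are the members with the largest differences, and their promoters are shown because the 3 share a motif and differ in others. Each is the 250 bases before the RefSeq start (GRCh38.p14), read 5′ to 3′ on the gene's own strand. Capitals mark matches on either strand to TATAAA, a core promoter box, to CATTCC, the M-CAT motif of TEAD factors, to AGATAA or its variant with an initial T, the motif of GATA factors, to the CArG box of SRF, and to the MEF2 site.
MYL7, chr7:44141333-44141582, reverse strand: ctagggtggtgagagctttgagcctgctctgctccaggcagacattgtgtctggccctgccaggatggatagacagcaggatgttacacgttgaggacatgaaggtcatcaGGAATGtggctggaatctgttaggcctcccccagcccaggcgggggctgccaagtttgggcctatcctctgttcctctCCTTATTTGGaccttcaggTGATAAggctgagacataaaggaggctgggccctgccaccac
MYH6, chr14:23408274-23408523, reverse strand: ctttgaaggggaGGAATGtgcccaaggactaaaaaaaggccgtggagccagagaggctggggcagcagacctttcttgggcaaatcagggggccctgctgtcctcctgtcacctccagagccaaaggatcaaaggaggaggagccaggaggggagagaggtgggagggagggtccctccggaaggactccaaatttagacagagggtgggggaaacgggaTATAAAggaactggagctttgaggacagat
RYR2, chr1:237041934-237042183, forward strand: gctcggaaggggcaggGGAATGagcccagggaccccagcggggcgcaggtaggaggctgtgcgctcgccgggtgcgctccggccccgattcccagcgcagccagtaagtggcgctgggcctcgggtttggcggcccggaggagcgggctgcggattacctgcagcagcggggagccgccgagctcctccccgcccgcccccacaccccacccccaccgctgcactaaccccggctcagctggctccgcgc
MYL7 holds a CArG match (CCTTATTTGG) from -61 to -52, counted back from -1 at the base before the start, a GATA match from -42 to -37 and an M-CAT match from -139 to -134. MYH6 holds a TATA match from -30 to -25 and an M-CAT match from -238 to -233. RYR2 holds an M-CAT match from -234 to -229 and, in letters left in lower case, 2 overlapping GC box matches (GGGCGG) from -61 to -52. Of 35116 promoters of the same length, 1.16% hold a CArG match, 14.6% GATA, 11.9% M-CAT, 10.7% TATA, 2.80% MEF2, 42.6% a GC box and 61.8% an E-box (CANNTG). An M-CAT match also lies in the TNNT2 promoter, from -81 to -76. The E-box of MYL7, from -46 to -41, overlaps its GATA match, and RYR2 has an E-box from -15 to -10. A match is a description of letters in this window, not a site shown to be bound. RefSeq promoters were at hand for 6 of the 10 genes, and MYH7, MYL4, TNNI1 and NPPB are named only.

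The troponin subunits, which make the thin filament respond to calcium, overlapped between the groups, and neither member passed the test. TNNT2 encodes cardiac troponin T (chromosome 1, 201359008 to 201377762, reverse strand, ENSG00000118194). It measured 9.14, 10.8, 8.78, 9.09 and 9.54 CPM in the knockout, against 11.2, 9.09, 8.79, 9.26 and 10.3 CPM in WT. The groups overlapped over nearly their whole range, and the log2 fold change was -0.04 (95% interval -0.21 to 0.14, edgeR adjusted p = 0.740). The annotation gives TNNT2 81 exonic bases in common with LAD1 on the same strand, and LAD1 stood at 22.3 ± 1.02 and 24.1 ± 0.985 CPM (SD, n = 5 each, edgeR adjusted p = 0.0550).

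TNNI1 encodes slow skeletal troponin I, the form that embryonic heart also uses (chromosome 1, 201403768 to 201429866, reverse strand, ENSG00000159173). It measured 2.45, 2.28, 2.15, 2.47 and 2.48 CPM in the knockout, against 1.92, 2.36, 2.27, 2.35 and 1.87 CPM in WT. The groups overlapped, although the 2 lowest libraries were both WT, and the log2 fold change was 0.13 (95% interval -0.09 to 0.35, edgeR adjusted p = 0.320). With an offset for transcript length and GC content it became 0.28 and passed (edgeR adjusted p = 0.0489), and with the length of all exons it was 0.24 and did not (0.0824). TNNI1 made up 8.71% ± 0.436 of the counts of the 3 troponin I genes in the knockout and 8.12% ± 1.22 in WT (SD, n = 5 each, exact permutation p = 0.333, adjusted 0.556). TNNI3, the adult cardiac form, stood at 24.8 ± 1.51 and 24.5 ± 1.54 CPM (edgeR adjusted p = 0.796), and with the transcript length and GC offset it passed as lower (log2 fold change -0.18, adjusted p = 0.0228).

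RYR2, the ryanodine receptor that releases calcium in heart cells, is the longest of the genes (chromosome 1, 237042205 to 237833988, forward strand, ENSG00000198626). It measured 3.73, 5.09, 7.92, 6.62 and 6.55 CPM in knockout replicates 1 to 5. In WT it measured 9.06, 7.81, 9.81, 9.12 and 9.80 CPM. The groups overlapped by a single pair of libraries, knockout replicate 3 lying just above WT replicate 2, and knockout replicate 1 was lowest. RYR2 fell to 5.98 ± 1.61 CPM from 9.12 ± 0.814 CPM (SD, n = 5 each), a log2 fold change of -0.60 (SE 0.16, 95% interval -0.96 to -0.25, edgeR adjusted p = 0.00947). With an offset for transcript length and GC content the log2 fold change was -0.36 and the call was lost (edgeR adjusted p = 0.0796), and with exon length it was -0.42 and passed (0.0455).

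The other ryanodine receptor genes were also lower, but those calls depended on the scaling. RYR1, the skeletal form, was at 47.8 ± 2.99 and 55.3 ± 1.83 CPM (log2 fold change -0.21, edgeR adjusted p = 0.00192). RYR3 was at 0.767 ± 0.251 and 1.24 ± 0.163 CPM (log2 fold change -0.70, edgeR adjusted p = 0.0260). With the transcript length and GC offset the log2 fold changes were 0.04 for RYR1 and -0.45 for RYR3 and neither passed (edgeR adjusted p = 0.388 and 0.131), and RYR3 also did not pass without WT replicate 2 (0.0623) or WT replicate 3 (0.0533). RYR2 was 7.24%, 9.38%, 12.95%, 12.6% and 12.3% of the counts of the 3 genes in the knockout and 14.5%, 11.9%, 14.5%, 13.9% and 14.6% in WT. Only WT replicate 2 lay within the range of the knockout, and the mean share was lower by 2.99 points (exact permutation p = 0.0317, adjusted 0.0794), which does not pass over the 5 shares.

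ATP2A2 encodes SERCA2, the pump that fills the endoplasmic and sarcoplasmic reticulum in nearly all cells (chromosome 12, 110280756 to 110351093, forward strand, ENSG00000174437). Per length it was by far the most abundant of the 10 genes. In the knockout it measured 320.9, 322.5, 326.5, 324.7 and 300.1 CPM, and in WT 356.7, 376.4, 381.1, 382.5 and 371.5 CPM. The spread within each group was narrow, with knockout replicate 5 below its group, and the groups did not overlap. The fall was small, from 374 ± 10.4 to 319 ± 10.8 CPM (SD, n = 5 each), a log2 fold change of -0.23 (SE 0.03, 95% interval -0.29 to -0.16, edgeR adjusted p = 8.40e-05). It shrank to -0.16 with the offset for transcript length and GC content (edgeR adjusted p = 5.59e-04) and to -0.07 with exon length, which ended the call (0.0665).

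ATP2A2 shares its function with ATP2A1 of fast skeletal muscle and ATP2A3 of blood, endothelial and epithelial cells. ATP2A3 fell further, from 43.8 ± 0.917 to 27.7 ± 3.66 CPM (SD, n = 5 each, log2 fold change -0.67, edgeR adjusted p = 2.85e-05), and ATP2A1 was at 5.45 ± 0.361 and 5.44 ± 0.403 CPM. ATP2A2 made up 89.4%, 89.9%, 91.6%, 91.8% and 90.2% of the counts of the 3 genes in the knockout and 88.1%, 88.3%, 88.5%, 88.7% and 88.1% in WT. Every knockout library was above every WT library, so that a gene that fell took a larger share of its family. The difference was 2.25 points (exact permutation p = 0.00794, the smallest that 5 against 5 allows, adjusted 0.0397), and it no longer passed when any of 9 of the 10 libraries was left out (adjusted 0.0794), where 4 against 5 cannot go below an unadjusted 0.0159.

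**Figure D2:**
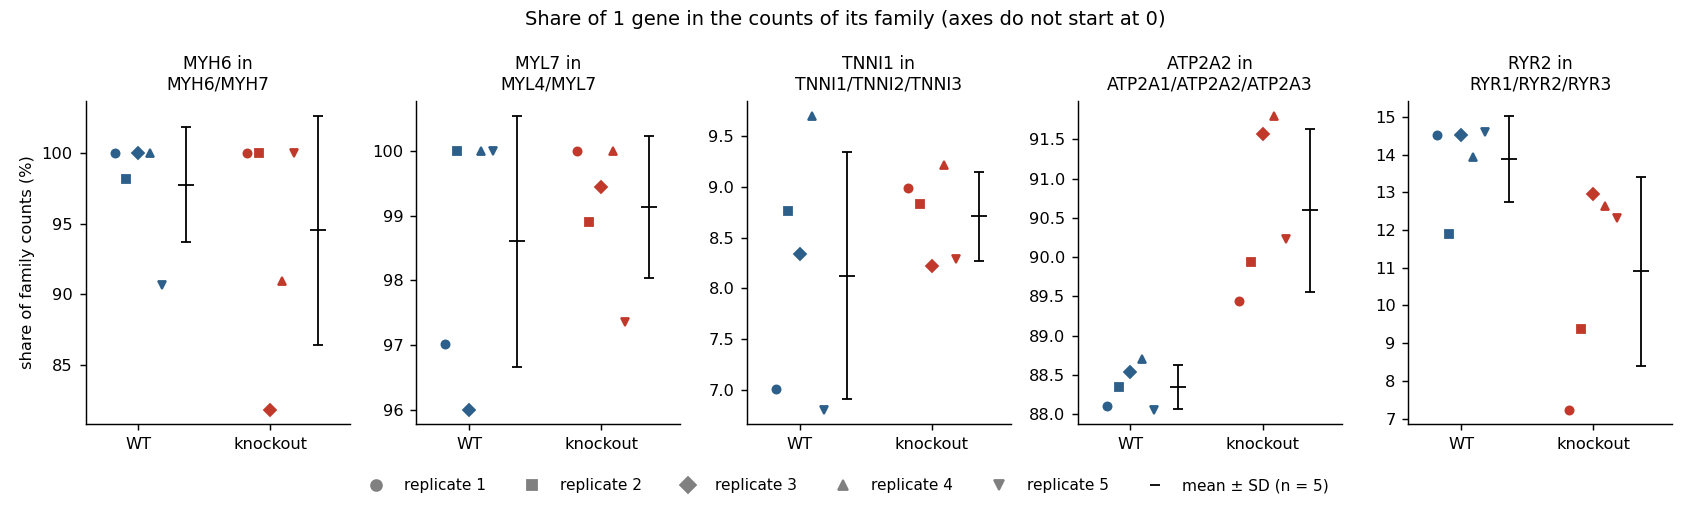
Share of MYH6, MYL7, TNNI1, ATP2A2 and RYR2 in the counts of their family (vertical axis in percent, not starting at 0) for 5 WT and 5 knockout libraries, with bars for the mean ± SD (n = 5). The ATP2A2 shares do not overlap between groups, whereas those of RYR2 overlap through WT replicate 2 at 11.9% and those of the other 3 overlap widely.

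PLN, the phospholamban gene, was almost silent (chromosome 6, 118548298 to 118560730, forward strand). It had 2 counts in knockout replicate 2, 3 in knockout replicate 5 and none in the other 8 libraries. The 95% counting interval of the ratio of these totals, 5 against 0, begins at 0.977 and so takes in equal levels, and without the filter PLN did not pass (edgeR adjusted p = 0.146). PLN lies inside CEP85L, which is transcribed from the opposite strand and rose from 6.88 ± 0.662 to 37.0 ± 11.1 CPM (SD, n = 5 each, log2 fold change 2.43, edgeR adjusted p = 2.06e-06). No PLN exon overlaps a CEP85L exon in the annotation, but without a stated strand setting unspliced CEP85L reads cannot be told apart from those of PLN.

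NPPB encodes brain natriuretic peptide, a hormone that stretched heart muscle secretes (chromosome 1, 11857464 to 11858931, reverse strand). Its counts were 2, 0, 12, 7 and 5 in the knockout and 5, 0, 4, 1 and 3 in WT. Knockout replicate 3 held nearly as many counts as all of WT, and both groups had a library at 0. The totals of 26 and 13 counts give a ratio of 2.13 after scaling by library totals (95% counting interval 1.06 to 4.52), an interval that covers counting error only, and the unfiltered test over libraries did not pass (edgeR adjusted p = 0.345).

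**Figure D3:**
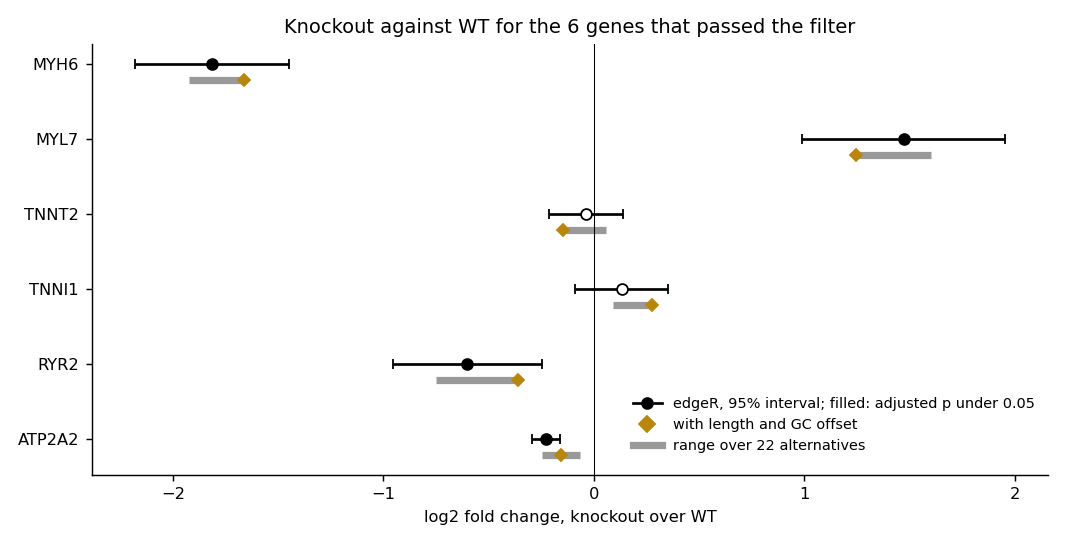
Log2 fold change of knockout over WT (horizontal axis) for the 6 genes that passed the filter, with 95% intervals as black bars, the value with the transcript length and GC offset as diamonds and the range over 22 alternative analyses as grey bars. MYH6 at -1.81 and MYL7 at 1.47 stayed far from 0 in every alternative, while the grey bar of ATP2A2 reaches -0.07 and that of RYR2 reaches -0.36.

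Levels of different genes were compared per kilobase of 1 transcript each. In WT the order was ATP2A2 at 91.3 ± 2.54, TNNT2 at 7.31 ± 0.748, MYL7 at 2.23 ± 0.338, RYR2 at 0.551 ± 0.0491, TNNI1 at 0.398 ± 0.0437, MYH6 at 0.184 ± 0.0101 and NPPB at 0.0999 ± 0.0761 CPM per kilobase (SD, n = 5 each), followed by MYL4, MYH7 and PLN near or at 0. Neighbours down to MYH6 were apart by more than their SDs, and the order among NPPB, MYL4, MYH7 and PLN was not resolved. ATP2A2 stood at the 96.2nd percentile of tested genes by this measure, TNNT2 at the 60.0th and MYH6 at the 5.14th. In the knockout MYL7 stood at 6.17 ± 1.99 CPM per kilobase, within its SD of TNNT2 at 7.13 ± 0.601, and moved from the 37.8th to the 56.4th percentile, whereas MYH6 fell to 0.0522 CPM per kilobase and the 0.654th percentile. Since MYH6 passed the filter through its WT libraries, a knockout rank near the bottom of the genes kept by that filter carries no weight of its own. RYR2 (0.361 ± 0.0972) and TNNI1 (0.437 ± 0.0271) did not differ beyond their SDs in the knockout. The lengths matter for this order, since with all exons counted MYL7 (2.59) lies above TNNT2 (1.31) in the knockout.

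Genes whose values over the 10 libraries ran closest to those of a member were found by the root mean square difference of centred log2 CPM among 14637 genes. MYL7 ran closest to MT1G (0.161 log2 units) and NMRK2 (0.169), against a median of 0.780 over all genes compared. RYR2 ran closest to MTUS2 (0.160) and UNC5C (0.163), with a median of 0.441. ATP2A2 ran closest to GANAB (0.0219) and DOCK1 (0.0252), TNNT2 to NPIPA9 (0.0546), of a family of near-copies, and ZSCAN20 (0.0552), and TNNI1 to C3orf38 (0.0579) and RBM34 (0.0757). For genes as flat as TNNT2 and TNNI1 such closeness says little more than that both are flat. ATP2A2 spanned a range as narrow, 0.350 log2 units against 0.346 for TNNT2 and 0.395 for TNNI1. Its closeness to GANAB and DOCK1 says little more than that each fell slightly.

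The rest of the sarcomere list moved in both directions. Of 15 tested genes out of 22 listed, 5 rose and 4 fell, with a median of 0.07, against 21.9% and 24.1% of all genes tested. ACTC1, the cardiac alpha actin of the thin filament, rose from 10.3 ± 0.436 to 41.4 ± 11.4 CPM (SD, n = 5 each, 4.01-fold, edgeR adjusted p = 3.19e-06). TPM2, a tropomyosin, rose with a log2 fold change of 0.46 (adjusted p = 3.68e-06). TTN, the giant spring of the sarcomere, fell from 23.2 ± 2.80 to 9.43 ± 1.17 CPM (log2 fold change -1.30, adjusted p = 1.35e-06). Reads of the muscle actins, which are near-copies of each other in their coding parts, may be shared between them.

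Genes of calcium stores and handling fell more often than they rose. Of 28 tested genes out of 30, 16 fell and 4 rose, with a median of -0.18, against 24.1% and 21.9% of all genes tested. With 1 library left out in turn, 13 to 16 fell and 4 rose. Like the other lists, this one was drawn up with earlier results of these data known, so the comparison is no independent test. ITPR3, a calcium release channel of non-muscle cells, fell with a log2 fold change of -0.39 (edgeR adjusted p = 2.80e-06) and ATP2B4, a plasma membrane calcium pump, with -0.41 (6.32e-06), and these were -0.18 and -0.22 with the transcript length and GC offset. HRC, a calcium-binding protein of the sarcoplasmic reticulum, fell from 10.6 ± 0.492 to 6.80 ± 0.271 CPM (SD, n = 5 each, log2 fold change -0.64, adjusted p = 3.24e-06). JPH1, which ties the reticulum to the cell surface, fell with a log2 fold change of -0.44 (1.60e-05). JPH2, SRI, FKBP1A and CALR were the 4 that rose, named here after their values were seen, and SRI lost its call with the transcript length and GC offset (log2 fold change 0.075, edgeR adjusted p = 0.154).

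In the natriuretic peptide system 6 of 9 genes were tested, of which 1 rose and 4 fell, where 21.9% and 24.1% of all genes tested did. NPPC, the C-type peptide, rose from 0.480 ± 0.0934 to 0.989 ± 0.323 CPM (SD, n = 5 each, log2 fold change 1.06, edgeR adjusted p = 0.00404). NPR1, the receptor of the NPPB product, fell from 30.5 ± 0.777 to 21.4 ± 2.17 CPM (log2 fold change -0.51, adjusted p = 4.40e-05). The other falls were slight, PRKG1 with a log2 fold change of -0.20 (adjusted p = 0.0192), MME, a peptide-degrading enzyme, with -0.15 (0.0322), and FURIN, a protease named here to complete the 4, with -0.08 (0.0408). The 4 falls became 1 with either length and GC offset, and 2 with replicate numbers as a block. No fit with a library left out kept all 4, with 1 fall without knockout replicate 4, 2 without knockout replicate 1 or 5 or WT replicate 2, 3 or 5, and 3 when each of the other 4 libraries was left out in turn.

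Of the heart transcription factors, 8 of 20 were tested, 3 rose and none fell. The share called is below the 46.0% of all genes tested, while by direction the share that rose is above their 21.9% and the share that fell below their 24.1%. The untested factors included NKX2-5, TBX5, TBX20, GATA4, GATA6, HAND2 and ISL1, each of which averaged under 0.1 CPM over the 10 libraries. SRF, which binds CArG boxes, rose with a log2 fold change of 0.30 (edgeR adjusted p = 0.0188), IRX4 with 0.45 (0.00448) and MEF2D with 0.16 (0.00970), or 0.31 with the transcript length and GC offset. MYOCD, a partner of SRF, was at 0.943 ± 0.469 CPM in the knockout against 1.51 ± 0.228 CPM in WT (SD, n = 5 each, log2 fold change -0.66, adjusted p = 0.0746), and it passed with limma voom (adjusted p = 0.0383) and without knockout replicate 3 (edgeR log2 fold change -0.92, adjusted p = 0.0107). Without that library 2 factors fell.

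Of 5 tested skeletal forms 1 was higher, close to the 21.9% of all genes tested, and none was lower. TNNC2, fast troponin C, rose with a log2 fold change of 0.55 (edgeR adjusted p = 0.0226), which was lost with either offset and without knockout replicate 5 or WT replicate 3. MYH2 (-0.22, adjusted p = 0.127), MYH3 (-0.14, 0.329) and TNNT1 (-0.01, 0.734) did not pass. MYH2 passed as lower without knockout replicate 4 (-0.31, edgeR adjusted p = 0.0219), and TNNT1 with either offset (-0.15 and -0.12).

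Smooth muscle and non-muscle contractile genes had the highest median of the 6 lists, 0.28, with 8 of 14 tested genes higher and 3 lower, against 21.9% and 24.1% of all genes tested. ACTG2, smooth muscle gamma actin, rose from 1.71 ± 0.300 to 8.91 ± 3.43 CPM (SD, n = 5 each, log2 fold change 2.38, edgeR adjusted p = 1.99e-05). MYL9, a smooth muscle regulatory light chain, rose from 104 ± 2.72 to 211 ± 34.4 CPM (log2 fold change 1.03, adjusted p = 6.15e-06), and MYL6, the essential light chain of non-muscle myosin, with a log2 fold change of 0.29 (5.93e-05), or 0.13 with the transcript length and GC offset. MYLK, the kinase of these regulatory light chains, fell from 33.9 ± 1.70 to 22.3 ± 1.17 CPM (log2 fold change -0.60, adjusted p = 1.80e-06).

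**Figure D4:**
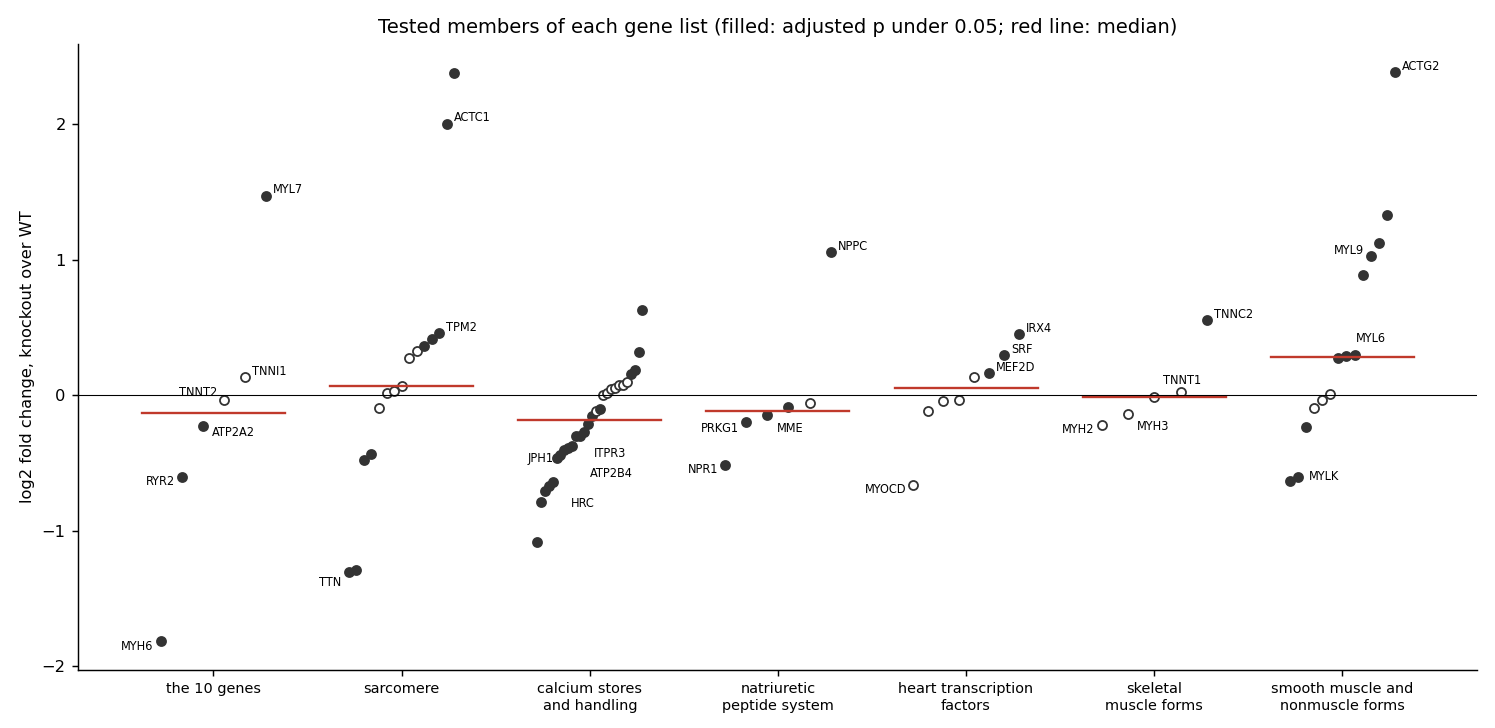
Log2 fold change of knockout over WT (vertical axis) for each tested gene of the 10 and of 6 related lists, filled where the edgeR adjusted p was under 0.05, with the median of each list as a red line. Medians run from -0.18 for calcium handling to 0.28 for smooth muscle and non-muscle forms, and calls in both directions appear in 4 of the 6 lists and among the 10 genes.

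A pattern by library, seen after the values were, ran through several of these genes. MYL7, ACTG2, MYL9, SRF, NPPC and RYR2 all ranked the 5 knockout libraries the same way, with replicate 1 lowest, then 2, 5 and 4, and replicate 3 highest. Other listed genes did so too, among them ACTA1, TAGLN and JPH2, and also MYH9 and MYOCD, which did not pass the test. How many of all genes tested rank this way was not counted, so the order is not shown to be particular to these genes. For SRF the values were 137.7, 152.2, 209.8, 186.5 and 163.7 CPM in knockout replicates 1 to 5 against 136.2 to 139.6 CPM in WT, so that replicate 1 lay among the WT libraries. RYR2 fell on average while ranking the same way, so its knockout libraries with the highest MYL7 were those nearest to WT. The summed level of 5 smooth muscle markers ranked likewise, 54.0, 62.6, 93.8, 80.5 and 75.5 CPM in the knockout against 40.5 to 46.3 CPM in WT. ACTG2 is 1 of these 5 markers, so this ranking is not independent of the one above. CNN1, ACTG2 and SMTN were higher and LMOD1 was not called. Of the 5 markers only ACTG2 and SMTN kept the order of the sum. CNN1 was lower in knockout replicate 4 (33.9 CPM) than in knockout replicate 5 (34.9 CPM). LMOD1 was lowest in knockout replicate 2 and highest in knockout replicate 4. MYH11 was lower (log2 fold change -0.63, edgeR adjusted p = 2.85e-04) and ranked otherwise too, highest in knockout replicate 2 and lowest in knockout replicate 4. The part of this pattern in the differences of MYL7 and RYR2 was not tested. Of 6 fibroblast markers 3 were tested, and all 3 were called lower in the knockout, where 24.1% of all genes tested were. Their sums were 144 to 164 CPM against 233 to 243 CPM in WT. Nearly all of these sums was COL1A1 and COL1A2, while POSTN averaged 0.415 CPM and COL3A1 0.011 CPM over the 10 libraries. Of 4 tested endothelial markers, ERG (log2 fold change -2.34), VWF (-1.15) and CDH5 (-0.99) were lower and TEK (0.57) was higher, and the sums of 5 markers overlapped, 10.5 to 19.1 CPM against 12.9 to 15.6 CPM in WT. The part of these markers in the fall of ATP2A3 was not tested.

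**Figure D5:**
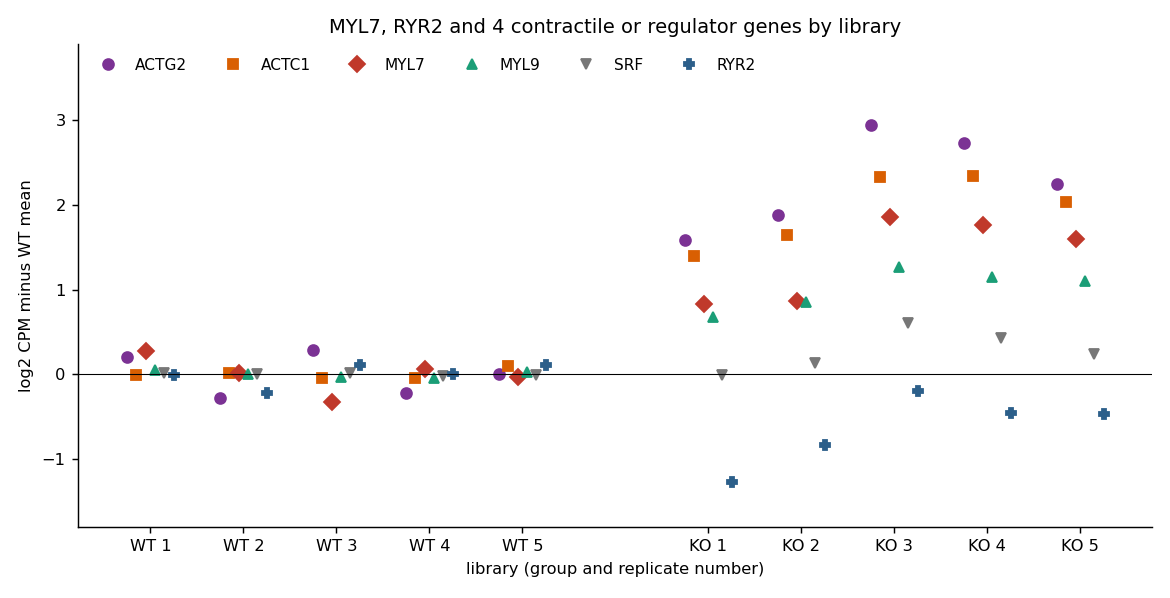
Log2 CPM minus the WT mean (vertical axis) for MYL7, RYR2, ACTC1, ACTG2, MYL9 and SRF in each of the 10 libraries, a symbol per gene. WT libraries lie near 0 for all 6 genes, and among knockout libraries replicates 1 and 2 are lowest for each gene, including RYR2, which lies below 0.

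In the authors' deposited table of the same comparison, the log2 fold changes were -1.22 for MYH6, 1.10 for MYL7, -0.51 for RYR2 and -0.21 for ATP2A2, and its call column marks MYH6 and MYL7 alone among the 10, although its adjusted p was 0.00112 for RYR2 and 4.47e-09 for ATP2A2. A DESeq2 Wald test of the counts gave -1.82 for MYH6 and 1.48 for MYL7, larger in size than the deposited values. The directions of the 4 genes are the same as those of the edgeR fit. The table holds no adjusted p for MYH7, MYL4 and PLN.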

How the data were processed

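PolyA RNA of 5 KCNH2 knockout and 5 WT libraries was sequenced as paired ends (NovaSeq-6000, per the labels' protocols). The authors deposited raw counts per gene, with no normalization. Per the submitters' processing notes, the build hg38 and the tools DESeq2 and R 3.6.3 were used. Not given in the sources used here are the aligner, the counter, the gene annotation and whether strand was used. The second table deposited by the authors compares the groups and lists per gene a normalised mean signal, log2 fold changes, their standard errors, the quotient of both as a score, and p-values, raw and adjusted. It was used for symbols and for the log2 fold changes quoted as the authors'.

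The quasi-likelihood test of edgeR 4.0.16 (R 4.3.3) was run on the counts, two-sided, after filterByExpr and with TMM scaling. Its p-values were adjusted by Benjamini-Hochberg over 19163 genes, and calls used 0.05. SE is the log2 fold change over the root of F. CPM uses TMM-scaled totals, and log2 CPM a prior count of 2. The fit was tested on simulated counts with 200 changed genes. Shares of family counts were compared over libraries by exact permutation of the 252 splits (scipy 1.17.1, Python 3.11.15). Alternatives used DESeq2 1.42.0, limma 3.58.1, sva 3.50.0, other filters, a replicate block, offsets for length and GC content (a spline of 5 degrees of freedom), and left-out libraries. The offset with exon length was added after seeing the data. Gene positions and lengths come from GENCODE 29 and promoters from RefSeq GRCh38.p14.

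Replicate pairs of a group differed beyond sampling noise (chi-square per degree of freedom 3.59 to 26.2 over genes with at least 20 counts), so each library counted once. Named genes are the 10 members, up to 4 genes of smallest p per list, the 2 genes closest to each member of at least 1 CPM, genes sharing annotated bases with a member, and family genes of the shares, of which 1 is not reported here. Members and lists were chosen with earlier results of these data known.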

Additional observations from a re-analysis of the deposited data

Results flagged for a closer look

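Among 78 groups of 5 values from the 10 genes, their shares and the named genes of the lists, 8 held a library whose gap to the nearest other exceeded 0.71 of the group's range, and chance alone flags about 1 in 20. WT replicate 5 was the low library for MYH6 (0.987 CPM against 1.10 to 1.14 CPM), still above every knockout library. The same library was high for MYH7 (0.102 CPM, 3 counts) and hence low for the MYH6 share (90.6%, the others at 98.2% or more). Knockout replicate 5 was high for MYL4 (0.114 CPM, 4 counts) and low for ATP2A2 (300.1 CPM against 320.9 to 326.5 CPM). WT replicate 2 was low for the RYR2 share (11.9% against 13.9% to 14.6%). Without it the RYR2 and ATP2A2 shares tied at 0.0159, the smallest exact permutation p that 4 against 5 allows. Both passed the adjustment through that tie, so the pass adds no support. WT replicate 3 was high for HRC (11.46 CPM against 10.3 to 10.5 CPM), and knockout replicate 4 for MYH2 (2.80 CPM against 2.02 to 2.15 CPM).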

How the results depend on the processing

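Under the 22 alternatives to the edgeR fit, the directions of MYH6, MYL7, RYR2 and ATP2A2 held, MYH6 with log2 fold changes of -1.92 to -1.66 and MYL7 with 1.24 to 1.60. Tested against a log2 fold change of 1 (edgeR glmTreat), 83 of all genes were higher and 93 lower, and of the 10 genes 0 were higher and 1 lower. With the transcript length and GC offset 2 of the 10 were higher (MYL7 and TNNI1) and 2 lower, RYR1 (log2 fold change 0.041) and TNNI3 (-0.18) changed sign, and the cause was not tested. Leaving out each library in turn gave 3846 to 4537 genes higher and 4150 to 4517 lower, with 1 higher and 3 lower among the 10 throughout. The ATP2A2 share difference ran from 1.95 to 2.54 points with 1 library left out, passing without WT replicate 2 only, and was 2.05 points without both replicate 3 libraries (adjusted exact permutation p = 0.143, fewer libraries). The RYR2 share difference ran from -3.50 to -2.07 points and was -3.49 without WT replicate 2 (adjusted exact permutation p = 0.0397). The RYR2 and ATP2A2 shares passed in that fit because they tied at the smallest p that 4 against 5 allows (exact permutation p = 0.0159). Calls on these shares with fewer libraries thus follow the number of splits and say nothing further about the difference. Same-numbered libraries did not deviate together in every pair (r from -0.16 to 0.70, 4 of 5 over 0.1). The highest r was that of the replicate 3 libraries, and knockout replicate 3 correlated best with WT replicate 3. Only 1 of 5 knockout and 1 of 5 WT libraries correlated best with its own number, so the numbers were not taken as pairs. A batch shared by some same-numbered libraries was not tested. With a replicate block 1 of the 10 genes was higher and 3 lower, as without it. The depth limits MYH7, MYL4, PLN and NPPB, for which 0 to 12 counts a library allow no call.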
